A study of Homo sapiens with 3 samples.

Results

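The peaks described here are the 8-oxodG peaks of G0-arrested MCF10A cells that lie in pericentromeric and variable bands. They are all rows of the deposited peak list whose midpoint falls in a cytogenetic band of hg18 drawn as centromeric (stain class acen), of variable heterochromatin (gvar) or as the stalk of an acrocentric short arm (stalk). The rule uses position alone, and it chose 417 of 23641 peaks, 231 in acen bands, 186 in gvar bands and none in stalks, which hold 0 bp of sequence in this build. MCF10A is an established line of human mammary epithelial cells that does not form tumours. The cells were grown in medium with horse serum, received no treatment and are labelled as arrested in G0, a state in which cells have left the division cycle. Their genomic DNA was sonicated and immunoprecipitated with an antibody against 8-oxodG (DIP-seq). The 3 samples, from 2 experiments, form 1 group of the same untreated line, and they share 1 list that holds no value per sample. No value below therefore has a replicate error, no test between groups of samples could be run, and every comparison is a description of this list. Depth per sample was not stated in the labels or the list, and no sample without antibody enrichment was analysed.

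8-oxodG (8-oxo-7,8-dihydro-2'-deoxyguanosine) is guanine oxidised at the 8 position of the base. It can pair with adenine and so lead to G-to-T changes, and the glycosylase OGG1 removes it from DNA as the first step of base excision repair. Centromeres carry the kinetochore on long arrays of alpha satellite, and the flanking heterochromatin is rich in other tandem satellites, in segmental duplications and in the histone mark H3K9me3. Short arms of the acrocentric chromosomes carry the ribosomal RNA genes between blocks of satellite. Much of this sequence is absent from hg18 and stands there as gaps, and what is present is often nearly identical to copies elsewhere. No hg18 genome was used here, so the bases under the peaks were not read and no peak was assigned to a repeat or a gene.

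Peaks in these bands were about as frequent per Mb as elsewhere, but they covered more of the sequence. The chosen classes comprise 67 bands that span 221.2 Mb, of which 46.5 Mb in 42 bands is sequenced, or 1.64% of the sequenced genome. This sequence held 1.76% of all peaks and 4.30% of all bases under peaks. Density was 8.96 peaks per sequenced Mb (95% Poisson interval 8.12 to 9.86), against 8.34 (8.23 to 8.44) in all other bands, a ratio of 1.07. Peaks covered 1.18% of the sequence in these bands and 0.438% in the others, a ratio of 2.69. These intervals, like all below, cover counting error only, and neighbouring peaks are not independent.

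Peaks here had somewhat higher medians of width, pileup and background than the rest of the list, and their upper quartiles of these 3 measures lay further above those of other bands. Median width was 500 bp (quartiles 361 and 814), against 451 bp (362 and 581) in other bands. The pileup, which is the number of fragments stacked at the summit, had a median of 33 (quartiles 18 and 64) against 25 (16 and 41). The background at the summit, which is the fragment number the peak's fold enrichment is set against, had a median of 1.26 fragments (quartiles 0.818 and 2.67) against 1.01 (0.723 and 1.42). Fold enrichment, the authors' own value for each peak, had nearly the same median in both sets, at 11.8 and 11.7, and upper quartiles of 17.6 and 17.9. The highest pileup (316 against 400) and the highest fold (56.4 against 274.6) were lower here than in other bands, which held many more peaks. Shares of high values were nevertheless larger here. A fold of at least 50 was reached by 1.44% of the peaks here (6 peaks), against 0.650% in other bands. A pileup of at least 200 was reached by 2.64% against 0.0344%. Pileup and background were thus both higher at the median, by 1.32 and 1.25 times, while the ratio of the fold medians was 1.01.

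Very wide peaks and peaks over high background were a larger share here. Of the 1314 peaks of at least 1 kb in the list, 80 lay in these bands, or 6.09% (95% exact binomial interval 4.86 to 7.52). The share rose to 23.4% of the 175 peaks of at least 2000 bp and to 75% of the 12 of at least 10000 bp. Seen from the bands, 19.2% of their peaks were at least 1 kb wide (15.5 to 23.3), against 5.31% of the others (5.03 to 5.61). Of the 29 peaks with a background of at least 10 fragments, 19 lay here, and of the 19 peaks with a pileup of at least 200, 11 did. Close neighbours were common as well, since 91 of the 417 peaks (21.8%) had another peak within 1 kb, against 5.41% of the others.

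Chromosomes differed widely. Density in these bands was higher than on the rest of the same chromosome on 8 of 23 chromosomes and lower on 15, with a median ratio of 0.765. The Poisson interval lay above the density of the rest of the chromosome on 4 of them. These were chromosome 10 with 52.8 peaks per Mb against 8.49, chromosome 4 with 43.6 against 6.17, chromosome 7 with 25.7 against 8.58 and chromosome 2 with 13.5 against 7.08. It lay below on 5, which were chromosomes 6, 8, 11, 19 and 22. Among these 5 the largest gap by ratio was on chromosome 6, with 4 peaks in 1.90 Mb (2.11 per Mb) against 6.98. On the other 14 chromosomes the interval held the value of the rest. Sequence in these bands was short on most chromosomes, from 0.140 Mb on chromosome 15 to 9.30 Mb on chromosome 19, so that many intervals are wide.

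**Figure D1:**
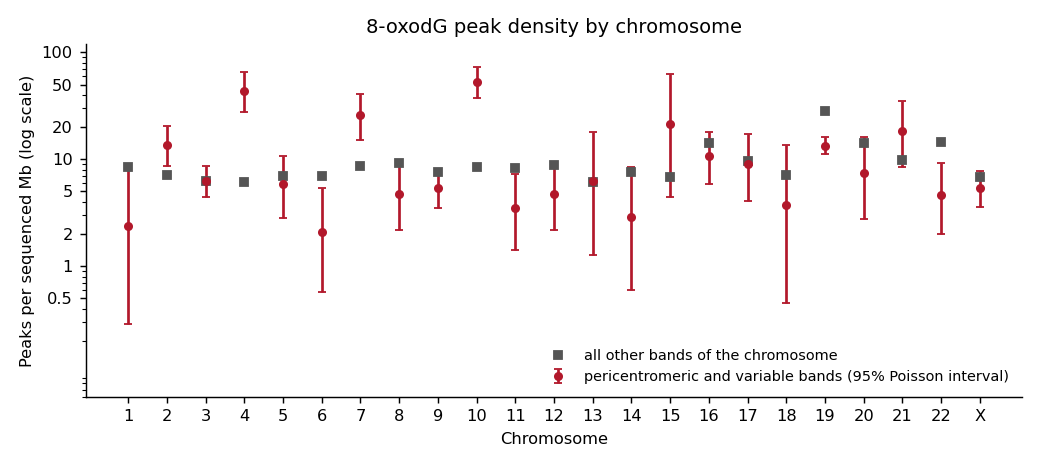
Peaks per sequenced Mb (y axis, log scale) on each chromosome (x axis) in pericentromeric and variable bands (red circles, bars are 95% Poisson intervals) and in all other bands of the chromosome (grey squares). Chromosomes 4 and 10 stand highest at 43.6 and 52.8 peaks per Mb, and chromosome 19 shows the reverse order, at 13.4 against 28.03.

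Part of the high density on chromosomes 4, 7 and 10 came from closely spaced peaks. With peaks no more than 1 kb apart joined, the 24 peaks of chromosome 4 became 11, the 38 of chromosome 10 became 16 and the 18 of chromosome 7 became 11. Densities were then 20 (9.98 to 35.8), 22.2 (12.7 to 36.1) and 15.7 per Mb (7.84 to 28.1). The interval of chromosome 7 then held the density of the rest of that chromosome, while those of chromosomes 2, 4 and 10 did not. On chromosome 21 the 9 peaks became 7, with 1 joined stretch of 86880 bp.

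Both median width and median background were higher here than on the rest of the chromosome on several chromosomes. The median background of these peaks was 4.61 fragments on chromosome 10, 4.63 on chromosome 21, 4.03 on chromosome 4 and 3.37 on chromosome 7, where the other peaks of each chromosome had a median of 0.944. It was 22.9 on chromosome 1, which had 2 such peaks. Median widths were 2768 bp on chromosome 10 and 1202 bp on chromosome 21, against 449 and 445 bp on the rest of them. On chromosomes 4 and 7 they were 638 and 624 bp, against 432.5 and 459 bp. On chromosome 17, with 9 peaks, the background was 2.67 against 0.944 and the width 639 against 449.5 bp. On chromosome 15, with 3 peaks, they were 2.26 against 0.912 and 875 against 433 bp, and on chromosome 2, with 23 peaks, 1.73 against 0.944 and 604 against 441 bp. On chromosomes 8, 16, 19 and 20, where the background of the other peaks was itself 1.38 to 1.42, the medians here were 1.89, 1.42, 1.04 and 2.89. The opposite order, also seen on chromosome 19, occurred for background on chromosomes 3, 5, 9, 14 and 22, with 0.896, 0.708, 0.613, 0.535 and 0.723 fragments against 0.912, 1.10, 0.944, 0.944 and 1.10. Across all 23 chromosomes the median background was higher here on 15, equal within 0.1% on 2 and lower on 6, while the median width was higher on 14 and lower on 9. Among the 10 chromosomes with at least 10 such peaks, background was higher on 5, equal on 1 and lower on 4, and width was higher on 6.

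**Figure D2:**
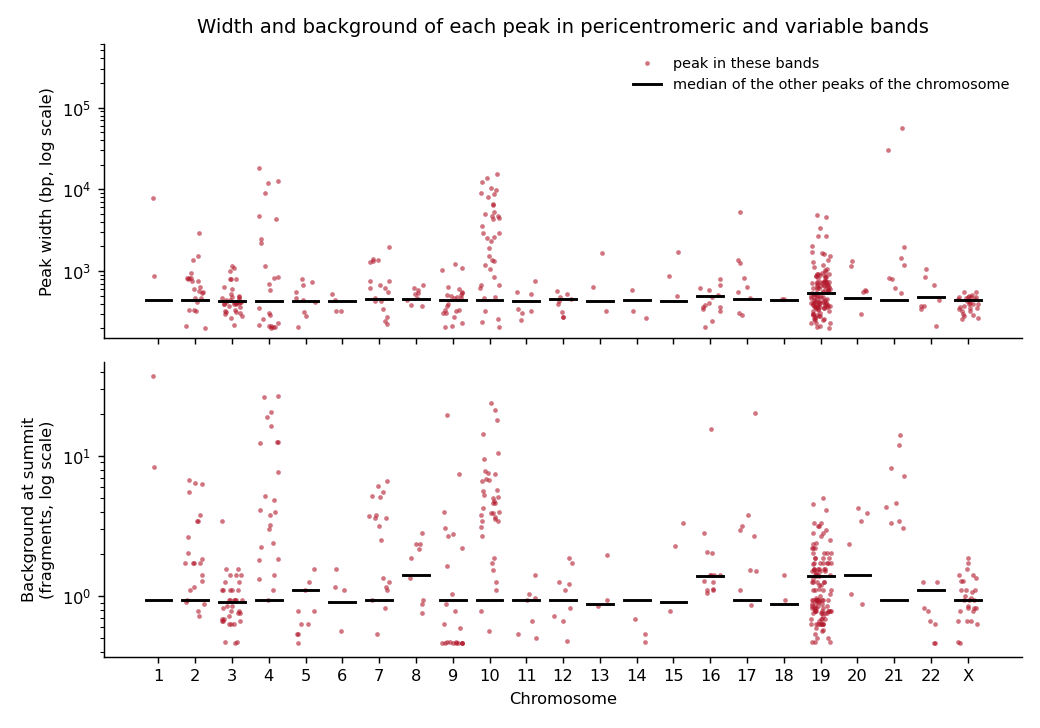
Each red point is 1 of the 417 peaks, with its width in bp (upper panel, log scale) and the background at its summit in fragments (lower panel, log scale) by chromosome, and black lines are medians of the other peaks of that chromosome. Chromosomes 4, 10 and 21 reach widths above 10000 bp, whereas on chromosome X the widest of 29 peaks measured 561 bp.

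A few bands of chromosomes 4, 10 and 21 carried most of the covered bases. Ranked by the share of sequence under peaks, the highest were 10p11.1 (37.5% of 0.345 Mb), 21p11.2 (31.1% of 0.280 Mb), 4p11 (14.4% of 0.505 Mb), 10q11.1 (8.08% of 0.375 Mb) and 21p11.1 (3.12% of 0.210 Mb). The next was 15q11.1, at 2.19%. These 5 bands, set apart after their values were seen, held 71 of the 417 peaks (17.0%) on 3.68% of the sequence, but 59.3% of the covered bases and 42 of the 80 peaks of at least 1 kb. Because they were chosen by the share of sequence under peaks, high density, width and covered bases follow in part from the choice. The same holds for the lower values of the remaining bands. Peaks of the 5 bands had a median width of 1435 bp, a median pileup of 72 and a median background of 4.59 fragments. The other 346 peaks had medians of 472.5 bp, 27 and 1.10, close to the rest of the list, and covered 0.498% of their sequence at a density of 7.72 per Mb (6.93 to 8.58). Their share of peaks of at least 1 kb, 10.98% (7.89 to 14.8), was still above the 5.31% of other bands.

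Most of this coverage lay in 6 clusters, defined as peaks with gaps of at most 10 kb. In 21p11.2, a short-arm band of an acrocentric chromosome, 2 peaks (chromosome 21, 9795548 to 9882427) filled 99.3% of 86.9 kb, with pileups of 204 and 132 and backgrounds of 12.05 and 7.20. In 10p11.1, on the short-arm side of the centromere of chromosome 10, 18 peaks (39116488 to 39194775) filled 93.3% of 78.3 kb, with a median pileup of 65.5 over a background of 5.19. A cluster of 7 peaks in the same band (38812404 to 38859023) filled 99.0% of 46.6 kb, at 83 over 3.96. None of the 18 peaks exceeded a pileup of 111, while the cluster of 7 reached 165.

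The other 3 of the 6 clusters were in 4p11 and 10q11.1. In 4p11, 20 peaks (chromosome 4, 48787822 to 48853537) covered 68.3% of 65.7 kb, with a median pileup of 48 over a median background of 3.88 and maxima of 264 and 27.0. The cluster opened with 5 peaks of 2226 to 12112 bp and pileups of 157 to 264 and closed with a peak of 12687 bp and 213. The 14 peaks between them were 200 to 1161 bp wide, with pileups of 13 to 80. A pair of peaks nearer the centromere gap (49327920 to 49355047) filled 99.8% of 27.1 kb, at a median pileup of 179 over 15.6, and the summit of the wider was 322 bp from the end of the sequenced contig. In 10q11.1, 4 peaks (chromosome 10, 41674790 to 41703398) covered 90.6% of 28.6 kb, at a median pileup of 188.5 and a median background of 16.3. Median fold enrichment in these clusters was 11.3 and 11.21 in 4p11, near the 11.7 of the whole list, and lower in 10q11.1, at 9.69.

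**Figure D3:**
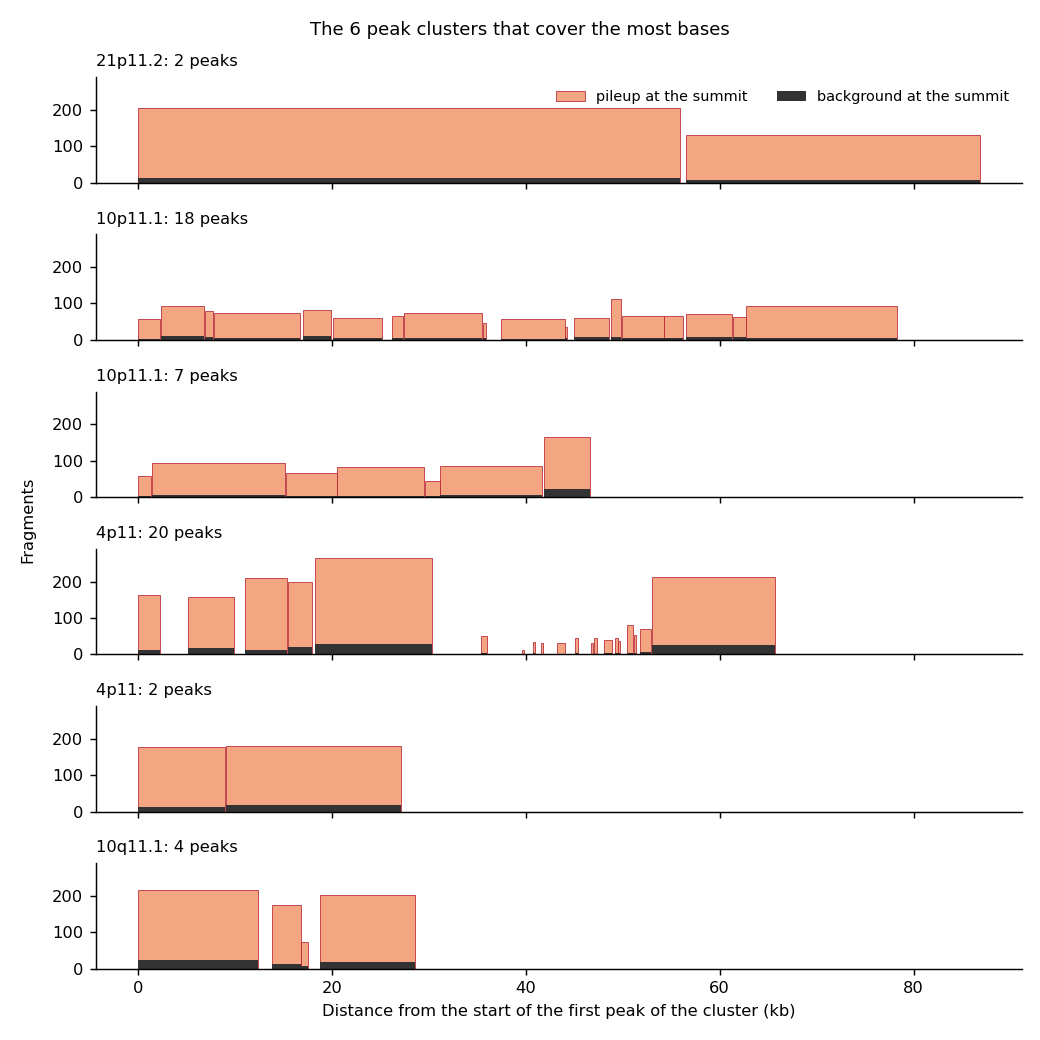
The 6 clusters that cover the most bases, each peak drawn as a bar as wide as the peak (x axis, kb from the start of the cluster) and as high as its pileup at the summit in fragments (light), with the background at the summit in dark; heights are summit values, not profiles. The 2 peaks of 21p11.2 span 86.9 kb, the 18 of 10p11.1 stay at or below a pileup of 111, and the tallest bar, of 264 fragments, is in 4p11.

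A few peaks outside these 6 clusters stood out by pileup and background. The highest of all 417 in both was in 1q12, the large heterochromatin block of chromosome 1, with 7733 bp (141476773 to 141484505), a pileup of 316 and a background of 37.4 fragments. Its fold enrichment of 8.25 was near the lowest in the list (7.001). The other peak of 1q12, at 141908556 to 141909435, had 150 fragments over 8.34. In 17q11.1 a peak of 5290 bp (22287030 to 22292319) had a pileup of 249 over 20.3, where the other 8 peaks of the chromosome's bands had backgrounds of at most 3.77. A narrower peak in 21p11.1 (10137539 to 10138740), 1 of 5 in a cluster that ends at 10165232, reached 283 over 14.2. A peak in 20q11.1 (28260809 to 28261952) differed from these, since its pileup of 238 stood over a background of 3.95 and its fold enrichment was 48.3.

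Background moved with width and pileup across the 417 peaks, as it did across the peaks of other bands. Spearman's rho was 0.594 between width and background and 0.755 between background and pileup, given as a description over peaks that share the same libraries. In other bands these values were 0.476 and 0.562. Background is computed here from pileup and fold, and every peak has a fold of at least 7.001, so a high background can occur only under a high pileup and part of that relation is fixed by the list itself. Between background and fold enrichment rho was 0.116 here and 0.0816 in other bands. The number of copies of each sequence in MCF10A was not measured, so more copies in the library and more 8-oxodG per copy cannot be told apart. The handling of reads that match several places, and whether the background was taken from a control library or from around the peak, were not stated in the labels or the list.

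Wide peaks of different bands differed in background and fold enrichment. In the 5 bands named above, the 42 peaks of at least 1 kb had a median background of 6.79 fragments and a median fold enrichment of 12.03, with none above 18.7. In 19p12 and 19q12, the 16 peaks of at least 1 kb had a median background of 1.71 and a median fold of 40.1. The remaining 22, from other bands, lay between, at 3.59 and 15.5. Wide peaks outside pericentromeric and variable bands (1234) had medians of 2.45 and 15.7. Among all peaks of 19p12 and 19q12 fold enrichment rose with width (rho = 0.746 over 125 peaks), and in the 5 bands it hardly did (rho = 0.158 over 71 peaks). Outside pericentromeric and variable bands this rho was 0.560 over 23224 peaks.

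**Figure D4:**
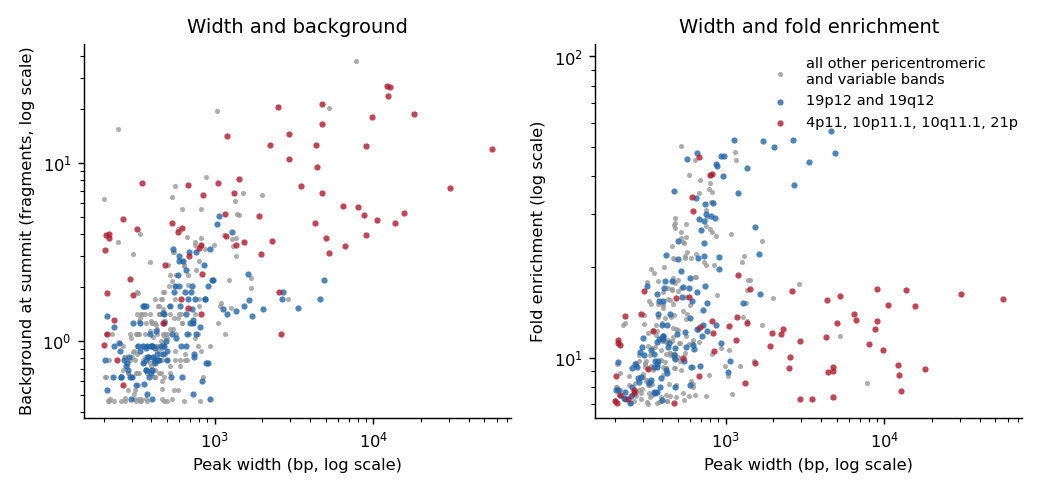
Width of each of the 417 peaks in bp (x axes, log scale) against the background at the summit in fragments (left, log scale) and against fold enrichment (right, log scale), with 19p12 and 19q12 in blue, 4p11, 10p11.1, 10q11.1 and 21p in red and all other pericentromeric and variable bands in grey. Above 1 kb the blue points lie at low background and mostly high fold (medians 1.71 and 40.1) and the red points at high background and low fold (6.79 and 12.03).

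The variable bands of chromosome 19 supplied 125 of the 417 peaks, the most of any chromosome. The bands 19p12 and 19q12 flank the centromere, and 19p12 is known for large clusters of KRAB zinc finger genes, whose products repress transcription and silence retroelements. Their densities differed, at 5.84 peaks per Mb (3.85 to 8.50) in 19p12, from 27 peaks, and 20.96 (17.0 to 25.5) in 19q12, from 98. Both were below the 28.03 per Mb of the rest of chromosome 19. In 19q12 density was 3.86 per Mb in the first stretch with sequence, where 3 peaks fell in 0.776 Mb, and 21 to 28 in each further window of 1 Mb. Median background was 0.944 and 1.10 fragments, below the 1.38 of the other peaks of the chromosome.

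Chromosome 19 also held 4 of the 5 highest fold enrichments of the 417 peaks. In 19p12 they were 56.4 at 23852757 to 23857382 (4626 bp, pileup 153), 53.0 at 23947624 to 23948754 and 52.7 at 24153730 to 24156388 (2659 bp, pileup 143). In 19q12 the highest was 52.4 at 34197886 to 34199605. Their backgrounds were 1.38 to 1.73 fragments. The widest peak of 19p12, 4892 bp at 23439834 to 23444725, had a fold of 47.8 over 2.20. The remaining 1 of the 5 was a narrow peak of 523 bp in 3p11.1 (89650729 to 89651251), with a fold of 50.6 over a background of 0.661. Of all 23 peaks here with a fold of at least 40, 14 were in 19p12 or 19q12, which held 125 of the 417 peaks. Such folds made up 5.52% of the peaks here and 2.63% of those in other bands. The median fold was 12.8 both in 19p12 and 19q12 and on the rest of chromosome 19.

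The heterochromatin blocks 1q12, 9q12 and 16q11.2 had 30 peaks in 5.38 Mb, or 5.57 per Mb (3.76 to 7.95), and a median width of 400.5 bp. Density was 2.63 per Mb (0.319 to 9.52) in 1q12, against 8.45 on the rest of chromosome 1, and 4.92 (3.003 to 7.59) in 9q12, against 7.64 on the rest of chromosome 9. In 16q11.2 it was 14.4 (6.20 to 28.3), against 14.07 on the rest of chromosome 16. In 9q12, 20 peaks had a median background of 0.535 fragments, and 10 of them lay within 0.02 of the lowest in the list, 0.460. Backgrounds at that lowest level made up 5.76% of the peaks here (24 peaks) and 6.25% of those in other bands. Of these 24 peaks, no band other than 9q12 held more than 2. Yet 9q12 also held a peak of 1029 bp (67908535 to 67909563) with a pileup of 177 over 19.5. In 16q11.2, 8 peaks had a median background of 1.35, and a peak of 247 bp at 44960942 to 44961188 had 133 fragments over 15.6. The 28 peaks of 3q11.2 resembled the rest of chromosome 3 in density, width and background, with 5.82 per Mb against 6.28, a median width of 424 bp against 428 and a background of 0.944 against 0.912. Their median pileup of 17.5 against 22 and median fold of 9.96 against 11.4 were lower.

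In centromeric bands pooled over chromosomes, peaks were denser on the short-arm side than on the long-arm side, but not on every chromosome. Outside the acrocentric short arms, acen bands on the short-arm side held 137 peaks in 10.7 Mb, or 12.8 per Mb (10.7 to 15.1), and those on the long-arm side 88 in 15.8 Mb, or 5.55 (4.45 to 6.84). Peaks of at least 1 kb made up 31.4% (23.7 to 39.9) on the short-arm side and 13.6% (7.25 to 22.6) on the long-arm side. Of the short-arm peaks, 54 lay in 4p11 and 10p11.1. The short-arm band was the denser on chromosomes 2, 4, 7, 10, 12, 17, 20 and X, in part on little sequence. The order was the reverse on chromosomes 5, 6 and 8, with 0, 0 and 3.96 per Mb against 9.45, 2.83 and 5.25. On chromosomes 11 and 18 the short-arm band had no peak in under 0.1 Mb. Chromosomes 13, 14, 15 and 22 entered on the long-arm side only, and chromosomes 1, 3, 9 and 16 on the short-arm side only, so the pools differ in chromosomes. Without the 5 bands the densities were 8.41 (6.70 to 10.4) and 5.17 (4.10 to 6.44), and the shares of peaks of at least 1 kb 12.05% (5.93 to 21.04) and 10% (4.42 to 18.8), so that the shares then differed by less than their intervals. Further short-arm bands with many peaks were 7p11.1, with 17 peaks or 25.8 per Mb (15.04 to 41.3) and a background of 3.15, and 2p11.1, with 15 or 21.7 per Mb (12.2 to 35.9) and 1.73. In 7p11.1, 8 peaks lay in a cluster of 11198 bp (57549752 to 57560949), with a median background of 4.46.

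Not every band of these classes was rich in peaks. Among those with at least 1 Mb of sequence, 19q12 was the densest, and 6q11.1 (2.83 per Mb, 0.772 to 7.25) and 14q11.1 (2.91, 0.601 to 8.51) were the sparsest. Sequence without any peak occurred in 7 bands. The longest were 5p11, with 0 peaks in 0.641 Mb, and 6p11.1, with 0 in 0.488 Mb, for which a count of 0 allows up to 4.68 and 6.15 peaks per Mb (3 peaks). The band 12q11 followed, with 0.357 Mb (up to 8.40). In 1p11.1, 4q11, 11p11.11 and 18p11.1 less than 0.1 Mb is sequenced, so a count of 0 says little. On chromosome X, 29 peaks in 5.40 Mb of Xp11.1 and Xq11.1 had a median width of 401 bp, against 438 bp on the rest of that chromosome. Their median background of 0.944 was the same as there. None of the 29 reached 1 kb (0 to 11.9%), against 4.27% of the other peaks of the chromosome.

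Medians of width, pileup and background were lower in each successive range of distance from the nearest contig end, where sequence borders an assembly gap. Within 50 kb of an end, 56 peaks had a median width of 1076 bp, a pileup of 65 and a background of 3.96 fragments, and 51.8% were at least 1 kb wide (38.0 to 65.3). From 50 to 200 kb the share was 28.4% (18.0 to 40.7), from 200 to 1000 kb 14.4% (8.76 to 21.8) and farther away 8.28% (4.60 to 13.5). Peaks in other bands showed a smaller fall, from 16.7% within 50 kb (12.3 to 22.01) to 4.25% beyond 1000 kb (3.97 to 4.54). Without the 5 bands the first 2 shares here were 25% of 24 peaks (9.77 to 46.7) and 12.8% of 39 (4.30 to 27.4). Farther away they were 11.4% (6.21 to 18.7) and 8.28% (4.60 to 13.5). By ratio the fall was then no larger than in other bands, and the interval of the first share held their 16.7%. Median width outside the 5 bands was 525 bp within 50 kb and 621 bp from 50 to 200 kb, while median background was 2.44 and 1.73 fragments. Both medians were lower farther away, at 457 bp and 1.10 from 200 to 1000 kb and 444 bp and 0.944 beyond. Over all 346 peaks outside the 5 bands, Spearman's rho between width and background was 0.543, against 0.476 over the peaks in other bands. The part of background in the width was not tested.

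**Figure D5:**
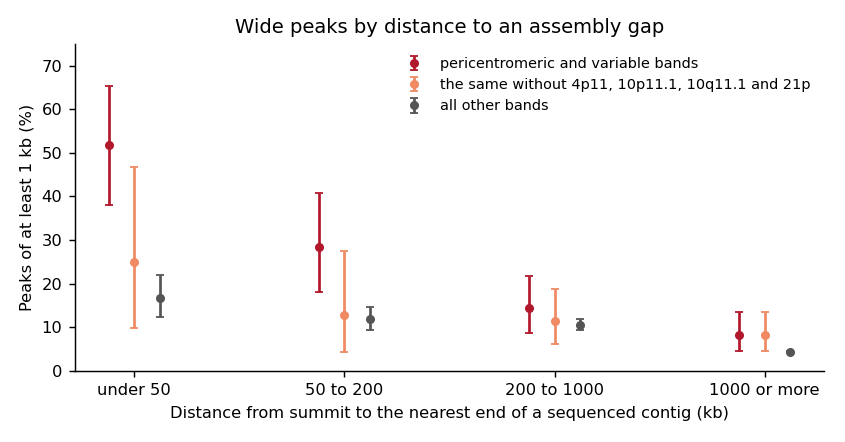
Share of peaks of at least 1 kb (y axis, percent, bars are 95% exact binomial intervals) by distance from the summit to the nearest contig end (x axis, kb), in pericentromeric and variable bands, in the same without 5 bands, and in all other bands. The share in pericentromeric and variable bands goes from 51.8% within 50 kb to 8.28% beyond 1000 kb.

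Band borders are drawn at rounded positions. The peak nearest a border on the inner side measured 465 bp, in 7p11.1 (57399856 to 57400320), with a pileup of 32, and the nearest on the outer side 409 bp, in 4q12 (52399924 to 52400332), with a pileup of 27. The third-widest peak of the whole list, 22102 bp in 10q11.21 (42110383 to 42132484), had its midpoint 21.4 kb outside 10q11.1 and is not counted here.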

How the data were processed

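The authors deposited 1 peak list for all 3 samples. Per the file headers it gives position, width, summit, pileup (a signal in fragments), fold enrichment, and p and q as −log10 p-values. Per the submitters' processing notes BWA, SAMtools, bedtools and the build hg18 were used, while caller, control and pooling were not stated. In the deposited fold and −log10 columns the decimal points were lost. They were restored by the Poisson relation between pileup, fold and p, with background = (pileup + 1) / fold − 1. The relation held within 0.01 for 23640 of 23641 peaks, including all 417 described, and 100% of 2000 simulated rows were returned. No peak passed an hg18 chromosome end.

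Bands came from circlize 0.4.16 and sequenced contigs from IRanges 2.36.0 (R 4.3.3). Computations ran in Python 3.11.15 with scipy 1.17.1 and pandas 2.3.3, and matplotlib 3.10.9 drew the plots. Densities are peaks, by midpoint, per sequenced Mb, with exact Poisson intervals; shares have exact Clopper-Pearson intervals. Mappability was not considered. No test was run, because the list has no replicates. Named peaks were the widest 10, the 5 highest in pileup, background and fold, the widest of each chromosome and those nearest a band border; the clusters, the 5 bands and peaks named beside them were chosen after values were seen. The bands and lists were chosen with earlier results of these data known. Alternatives covered the assignment to bands, joining, fold, stain class, chromosomes left out and the denominator.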

Additional observations from a re-analysis of the deposited data

How the results depend on the processing

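No paired analysis was possible because the list has no value per sample, and for the same reason no replicate could be left out. Of 109 values recomputed under alternatives, 76 stayed within 1.5 times the reported count or within the 95% interval of the reported value (for medians, an interval from binomial order statistics, with 0.1% allowed at its limits for rounding), and 33 moved beyond; beyond what each alternative's own construction shows, the cause was not tested. The omission of the 5 bands, of chromosome 10 and of chromosome 4 was chosen after seeing the data. Among peaks of at least the median fold enrichment the number was 214, the density 4.60 per Mb, the median width 654 bp, the pileup 51, the background 1.45, the fold 17.2, the share of at least 1 kb 24.8% and the covered bases 7551 bp per Mb. In acen bands alone the number was 231, the pileup 39, the share of at least 1 kb 25.1% and the share with a peak within 1 kb 27.3%. With bands widened by 1 Mb the number was 719, the share with a near peak 17.5% and the covered bases 9240 bp per Mb. With peaks joined the density was 7.61 and its ratio to other bands 0.939, on the other side of 1. Without the 5 bands the density was 7.72, the ratio 0.926, the pileup 27, the share of at least 1 kb 10.98%, the share with a near peak 12.4% and the covered bases 4981 bp per Mb. Per full band length the density was 1.89, the ratio 0.227 and the covered bases 2482 bp per Mb, since most of these bands is gap. Without chromosome 19 the density was 7.84, the ratio 0.980 and the share with a near peak 26.4%. Without chromosome 10 the share of at least 1 kb was 13.7%, the share with a near peak 16.9% and the covered bases 8497 bp per Mb. The covered bases were 9886 bp per Mb without chromosome 21 and 10358 without chromosome 4. The ratio of densities, 1.07 as reported, thus does not hold a direction, while the covered share stayed above that of other bands per sequenced Mb. Depth per sample is unknown, and bands with under 0.1 Mb of sequence allow no statement on density.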

Other observations

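Wide peaks also lay outside the drawn borders of these bands, close to a border in 10q11.21 and farther off at the other places below. Within 1 Mb outside the borders lay 302 peaks, with a median width of 482 bp, a pileup of 27 and a background of 1.10 fragments, and 37 of them (12.3%) were at least 1 kb wide. That share was 11.8% within 250 kb of a border, 8.82% from 250 to 500 kb and 14.1% from 500 to 1000 kb. Within 1 Mb inside, the 258 peaks had medians of 519.5 bp, 36 and 1.38, and 57 (22.1%) were that wide. Most of the widest outside were in 10q11.21 and 20q11.21. In 20q11.21, on the long-arm side of chromosome 20, 3 peaks between 29267672 and 29295037 measured 7503, 4496 and 15123 bp, with pileups of 76, 76 and 107 over backgrounds of 6.92, 7.86 and 5.94 fragments. Their midpoints were 871 to 887 kb from the border. In 16p11.2 peaks of 4318 bp (33772105 to 33776422) and 4064 bp (33805978 to 33810041) had 183 fragments over 19.3 and 137 over 9.53. Their midpoints were 626 and 592 kb from the border. A peak of 2647 bp in 15q11.2 (18773832 to 18776478), 375 kb from the border, differed, with 80 fragments over 1.07 and a fold enrichment of 39.1. In 20q11.21 and 16p11.2 the fold enrichments were 8.69 to 15.6.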
